A study of Homo sapiens with 6 samples.

Results

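The genes described here encode 9 sialyltransferases and the glycosyltransferase B4GALNT1, which together build gangliosides and cap the sugar chains of glycoproteins. They were followed in MDA231-LM2 cells grown attached or as floating spheres. The set held 10 named genes (ST3GAL5, ST8SIA1, B4GALNT1, ST6GALNAC5, ST3GAL1, ST3GAL2, ST3GAL4, ST3GAL6, ST6GAL1 and ST6GALNAC2) of 19775 genes on the arrays. Every probe set that the platform annotation gave to only 1 of these symbols was taken, which made 26 of 54613 probe sets. The genes were chosen by family after the intensities of this same comparison had been seen, that is, the log2 difference between oncospheres and monolayers. Their values and calls below are therefore a description and no independent test.

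MDA231-LM2 descends from the human breast cancer line MDA-MB-231 by selection for growth in the lung. RNA was hybridized to 6 Affymetrix Human Genome U133 Plus 2.0 arrays. The 3 monolayers grew on plastic in DMEM with 10% FBS and were collected 48 h after fresh medium was given. The 3 oncosphere cultures were kept without serum for 4 days on plates of very low adhesion, in HuMEC medium. This medium held 2% B27, 10 ng/ml of the growth factor bFGF, 20 ng/ml of EGF and 5 μg/ml of insulin. The groups thus differed in attachment, medium, serum and time at once, and these cannot be told apart. All cultures came from 1 cell line, so p-values measure the spread between cultures, and a lower level in a bulk culture cannot be told apart from fewer cells that express the gene.

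Gangliosides are sphingolipids whose sugar chain carries sialic acid, and they sit mainly in the outer leaflet of the plasma membrane. Ceramide receives glucose from UGCG and then galactose from B4GALT5 or B4GALT6, and ST3GAL5 adds the sialic acid that turns the resulting lactosylceramide into the ganglioside GM3. ST8SIA1 extends GM3 to GD3, and B4GALNT1 adds N-acetylgalactosamine to GM3 or GD3 and so opens the route to GM2 and GD2, the latter known as a marker of breast cancer stem cells. The other enzymes of the set mostly cap the sugar chains of glycoproteins. ST3GAL1 and ST3GAL2 act on O-glycans, ST3GAL4 and ST3GAL6 on chains that end in N-acetyllactosamine, ST6GAL1 on N-glycans, and ST6GALNAC2 on O-linked N-acetylgalactosamine. ST6GALNAC5 makes a branched ganglioside and is known as a mediator of brain metastasis in MDA-MB-231 derivatives.

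Promoter windows (250 bases before to 50 after a RefSeq start site, GRCh38.p14) were on hand for 6 of the 10 genes. The windows of the gene with the largest increase and the gene with the largest decrease are shown, each at the outermost start site of the gene. ST3GAL5 lies on the minus strand of chromosome 2 (chr2:85888985-85889284) and ST6GALNAC5 on the plus strand of chromosome 1 (chr1:76867230-76867529). Both are written 5′ to 3′ on the strand of the gene, and capitals mark the letters TGACGTCA, known as the cAMP response element and also bound by c-Jun paired with ATF2, and GGGCGG, the GC box, on either strand.
ST3GAL5: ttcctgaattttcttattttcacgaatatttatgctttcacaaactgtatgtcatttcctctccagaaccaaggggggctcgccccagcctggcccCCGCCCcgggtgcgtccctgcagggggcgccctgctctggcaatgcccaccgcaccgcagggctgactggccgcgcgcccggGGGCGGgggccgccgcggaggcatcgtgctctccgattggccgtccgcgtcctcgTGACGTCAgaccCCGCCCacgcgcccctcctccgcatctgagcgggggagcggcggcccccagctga
ST6GALNAC5: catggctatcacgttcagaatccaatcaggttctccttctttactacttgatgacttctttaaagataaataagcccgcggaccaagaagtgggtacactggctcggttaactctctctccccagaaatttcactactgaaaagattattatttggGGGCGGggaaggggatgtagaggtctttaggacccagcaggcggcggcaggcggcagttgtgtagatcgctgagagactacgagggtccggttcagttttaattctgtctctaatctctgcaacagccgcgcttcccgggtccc
The ST3GAL5 window held TGACGTCA from position -17 relative to the start, next to a GC box on the other strand at -5. TGACGTCA occurred in 1.85% of 35116 promoter windows of all genes. It stood in 2 of the 5 windows of ST3GAL5, which overlap and share this match, and in none of the windows of the other 5 genes. The AP-1 letters TGANTCA, found in 7.71% of all windows, stood in none of the windows of these 6 genes. GC boxes, found in 45% of all windows, stood in at least 1 window of each of the 6 genes. These are matches of letters, the first motif was chosen after the ST3GAL5 window had been read, and binding was not measured here.

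The synthase that starts the ganglioside series stood far apart from the rest of the set. ST3GAL5, with 1 probe set, had intensities of 221, 178 and 218 in monolayer cultures 1 to 3 and of 1931, 1618 and 2473 in oncosphere cultures 1 to 3. All oncospheres lay above all monolayers by a wide margin. The group means were 206 ± 24.2 and 2007 ± 433 (SD, n = 3 each), a 9.65-fold difference with a log2 change of 3.27 (SE 0.15). The oncosphere 2 array was the lowest of its group, and without it the log2 change was 3.41. The probe set is of the _s_at kind, which can match several transcripts or genes, and the annotation listed no other probe set of 1 symbol for this gene.

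Downstream in the same route, the GD3 synthase ST8SIA1 lay below the median probe set in monolayers and near it in oncospheres. Its brighter probe set read 84.7, 87.2 and 87.8 in monolayers and 121, 117 and 112 in oncospheres, against a median probe set intensity of 113.5. The groups were separate, and the log2 change was 0.43 (SE 0.06). Its other probe set had a log2 change of 0.35 (SE 0.06), also with no overlap. The size depended on the background. With each array's 5th percentile subtracted the log2 change was 1.25.

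B4GALNT1, the synthase of GM2 and GD2, had lower values in oncospheres. Its brighter probe set read 165, 209 and 202 in monolayers and 120.3, 139 and 147 in oncospheres, a log2 change of -0.50 (SE 0.11). These groups did not overlap, but the call at an adjusted p below 0.05 (limma, Benjamini-Hochberg) was lost when a background level was subtracted, where the log2 change was -0.83 and the adjusted p 0.0608, against 0.00195 to 0.0608 over all alternatives. The dimmer one overlapped between the groups and missed the threshold, with a log2 change of -0.10 (SE 0.07).

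ST6GALNAC5 had the largest decrease of the set. The brightest of its 3 probe sets, an _s_at probe set, read 211, 160.2 and 212 in monolayers and 74.0, 71.5 and 73.5 in oncospheres. The oncosphere values lay close together, well below the median probe set. The group means were 194 ± 29.5 and 73.0 ± 1.34 (SD, n = 3 each), which is 2.64-fold lower in oncospheres (log2 change -1.40, SE 0.11). The second probe set went from a mean of 126 to one of 81.4 (log2 change -0.63, SE 0.06), again with no overlap. The dimmest one was at 85.7 and 85.2 and was not called. The change was -0.63 without _x_at and _s_at probe sets and -2.99 with a background level subtracted, so its size is uncertain while its direction was the same under all alternatives run.

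**Figure D1:**
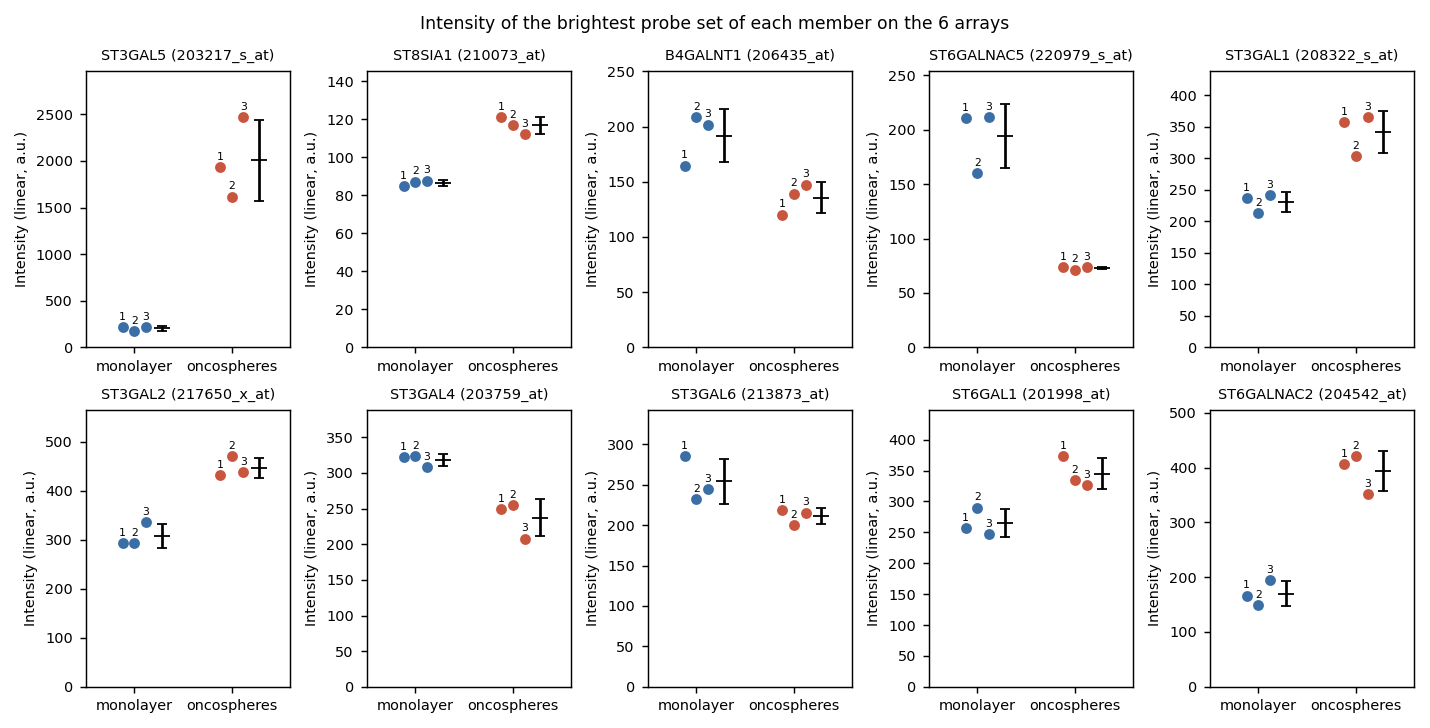
Intensity (linear scale, arbitrary units) of the brightest probe set of each of the 10 genes on the 3 monolayer arrays (blue) and the 3 oncosphere arrays (red), numbered by replicate, with the mean and SD in black and each axis starting at 0. ST3GAL5 rises from a mean of 206 to one of 2007, ST6GALNAC5 drops from 194 to 73.0, and in no panel do the groups overlap.

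Among the enzymes that cap O-glycans, ST6GALNAC2 had the largest increase. It read 167, 149 and 195 in monolayers and 407, 421 and 352 in oncospheres. Every oncosphere value exceeded every monolayer value, with a 2.32-fold difference between the groups (log2 change 1.21, SE 0.11). This gene had 1 probe set, of the kind that matches a single transcript group.

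ST3GAL1, which sialylates the common core of O-glycans, was higher in oncospheres by all 3 of its probe sets. The brightest read 237, 214 and 242 in monolayers and 357, 304 and 366 in oncospheres, a 1.48-fold difference (log2 change 0.57, SE 0.09). The other probe sets had log2 changes of 0.62 (SE 0.14) and 0.19 (SE 0.06), and none of the 3 overlapped between groups. As with ST3GAL5, culture 2 was the lowest of each group in the brightest probe set, and without the oncosphere 2 array the log2 change was 0.65.

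The 5 probe sets of ST3GAL2, which acts on O-glycans and on gangliosides, gave different values. The brightest, an _x_at probe set that can match related sequences, read 294, 294 and 336 in monolayers and 431, 471 and 438 in oncospheres (log2 change 0.54, SE 0.07). A second one had a log2 change of 0.24 (SE 0.07). The other 3 overlapped between groups, were not called and had log2 changes between -0.08 and -0.06. The mean of all 5 had a log2 change of 0.12 and was not called (limma adjusted p = 0.182, against 6.29e-04 to 0.182 over all alternatives).

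ST3GAL4 and ST3GAL6, placed above with chains that end in N-acetyllactosamine, had lower values in oncospheres by small margins, and only ST3GAL4 was called. ST3GAL4 read 322, 324 and 308 in monolayers and 249, 255 and 208 in oncospheres by its brighter probe set (log2 change -0.43, SE 0.08), and its dim one, with a log2 change of -0.11 (SE 0.07), missed the threshold. ST3GAL6 read 286, 232 and 245 in monolayers and 218, 200.0 and 216 in oncospheres by its brightest probe set. These values did not overlap, but the log2 change of -0.26 (SE 0.09) missed the threshold (limma adjusted p = 0.0528). All 4 probe sets of ST3GAL6 had a negative log2 change, from -0.26 to -0.11, and none was called. A call on the gene was gained in 6 of 18 alternatives. Among them were the fit without the monolayer 2 array (limma adjusted p = 0.0346) and the mean of all its probe sets (limma adjusted p = 0.0291). The adjusted p ranged from 0.0276 to 0.139 over all 18.

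ST6GAL1, which adds sialic acid to N-glycans in the linkage that blocks galectin binding, was higher in oncospheres by its brightest probe set. The values were 258, 290.2 and 247 in monolayers and 374, 335 and 327 in oncospheres. The lowest oncosphere value was above the highest monolayer value, and the log2 change was 0.38 (SE 0.08). A second, dim probe set had one of 0.18 (SE 0.06). The dimmest overlapped (log2 change -0.11, SE 0.09). The mean of the 3 probe sets was not called (log2 change 0.15, limma adjusted p = 0.0889, against 0.00549 to 0.0889 over all alternatives).

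**Figure D2:**
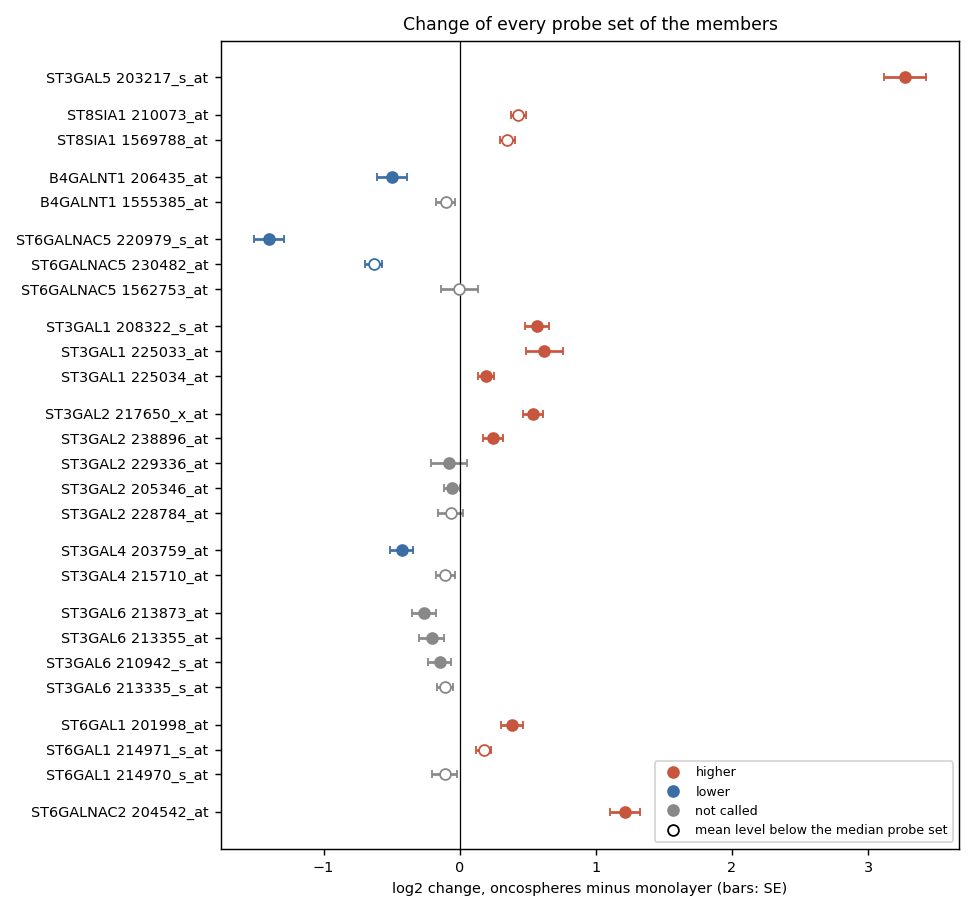
The log2 change (oncospheres minus monolayer, bars show the SE from limma) of all 26 probe sets of the 10 genes, with higher calls in red, lower calls in blue, no call in gray, and open symbols for probe sets whose mean lay below the median probe set. ST3GAL5 at 3.27 and ST6GALNAC5 at -1.40 are the extremes, and no gene has probe sets called in both directions.

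Counted by the brightest probe set, 6 of the 10 genes were called higher, 3 lower and 1 was not called, where 34.9% of all 19775 genes were called, 17.3% higher and 17.5% lower. In every one of the 10 genes the groups were separate, with oncospheres above in 6 and below in 4, against 46.9% of all genes, 22.3% above and 24.6% below. Counted by probe set, 11 of 26 were called higher and 4 lower, where 28.7% of all probe sets were called, 14.5% higher and 14.2% lower. Oncospheres lay above monolayers without overlap in 11 probe sets and below in 6, against 41.5% of all probe sets, 19.9% above and 21.7% below. Since this comparison chose the genes, nothing is read from these shares. The median log2 change over the 10 genes was 0.41, beside -0.02 over all genes, and over the 26 probe sets it was -0.06, also beside -0.02 over all probe sets. The sign of the median thus depended on how probe sets were counted. With a change of at least 1.5-fold, 2 genes (ST3GAL5 and ST6GALNAC2) were called higher and 1 (ST6GALNAC5) lower, beside 7.23% and 5.6% of all genes. By probe set these numbers were 3 and 2, beside 5.27% and 3.96%. For 4 genes (ST3GAL5, ST8SIA1, ST3GAL1 and ST6GALNAC2) every probe set was called higher. Of the 10 probe sets below the median intensity, 6 were not called, and of the 16 others 5.

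**Figure D3:**
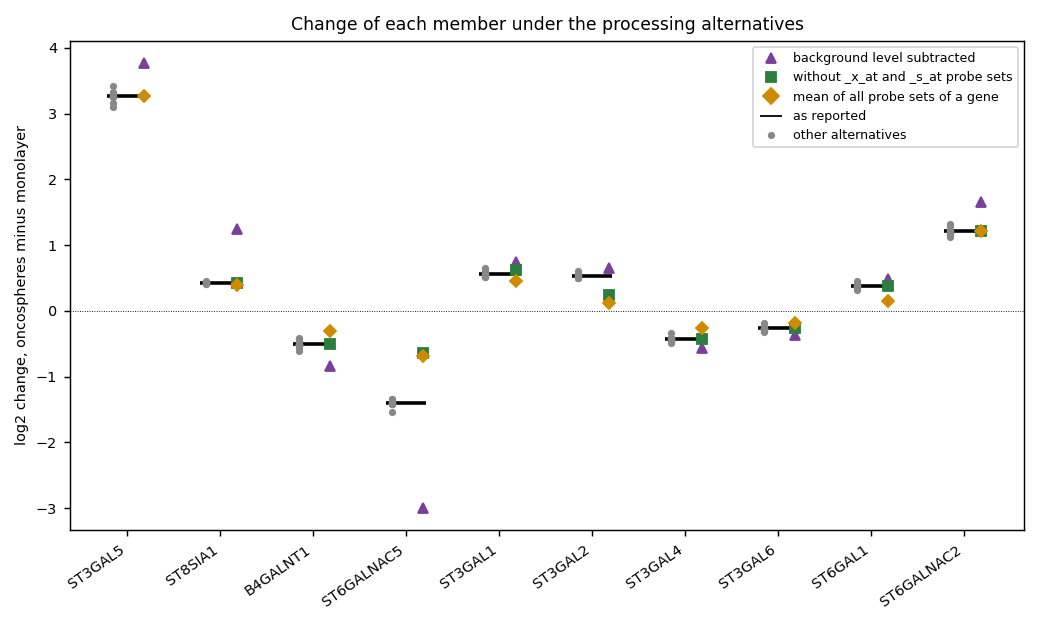
The log2 change (oncospheres minus monolayer) of the 10 genes as reported (black bars) and under the alternatives (points), with background subtraction as purple triangles, the fit without _x_at and _s_at probe sets as green squares and the mean of all probe sets as orange diamonds. The sign was kept throughout, although some alternatives do not alter the log2 change. The size for ST6GALNAC5 ran from -2.99 to -0.63 and for ST8SIA1 from 0.39 to 1.25.

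The pattern of ST3GAL5 over the 6 arrays, with culture 2 lowest in each group, was most closely matched by PLOD1, BSG, CTSF, PLD3 and ETHE1 among 801 genes with a log2 change of at least 1 in size. Pearson's r of the log2 intensities lay between 0.9988 and 0.9994 over 6 arrays, a value that the difference between the groups mostly sets. PLOD1 hydroxylates lysines of collagen, BSG is a membrane partner of lactate transporters, CTSF is a lysosomal cathepsin, PLD3 a lysosomal membrane enzyme and ETHE1 a mitochondrial enzyme of sulfide breakdown. PLOD1 went from a mean of 445 to one of 1307, and BSG from 1529 to 4419.

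To place the set in its pathway, 6 lists of other genes were counted, with 81 of 87 listed genes measured by a probe set of 1 symbol. In all, 23 rose, 13 fell and 45 were not called (limma, adjusted p below 0.05). The shares of called genes, 17.3% higher and 17.5% lower over all genes, apply to each list below. The count of lower genes was 8 without the oncosphere 1 array and 8 without the oncosphere 3 array. The lists were written with earlier results of these data known, and no list was tested against other genes.

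The steps just before GM3 moved in opposite directions. UGCG, which commits ceramide to glycosphingolipids, fell. Its intensities were 3848, 3680.1 and 3883 in monolayers and 1670.0, 1727 and 1772 in oncospheres (log2 change -1.14, SE 0.06, limma adjusted p = 6.47e-06), and its other probe sets had log2 changes of -1.34 and -1.37. B4GALT5, which makes lactosylceramide, rose from 1670.4, 1361 and 1839 to 4662, 4139 and 4621 (log2 change 1.47, SE 0.11, limma adjusted p = 4.51e-05). Its partner B4GALT6 was not called (log2 change -0.10). Of the enzymes that draw on lactosylceramide or its products for other series, B3GNT5, the entry to the lacto series, rose 2.31-fold by its brightest, _s_at probe set (log2 change 1.21, SE 0.07) and 1.57- and 1.66-fold by the others, with a log2 change of 0.65 without _x_at and _s_at probe sets. B3GALNT1, the synthase of globoside, fell by 0.82 on the log2 scale (SE 0.12). In the list of glycosphingolipid core and branch synthesis as a whole, 3 of 11 genes rose, 2 fell and 6 were not called, with a median log2 change of -0.07.

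In the list of ceramide synthesis and transport, 4 of 17 genes with values rose and 2 fell, none by 1.5-fold. A further 11 missed the threshold, and the median log2 change of the list was 0.14. SPTSSB, a small subunit of serine palmitoyltransferase, rose by 0.38 from values well below the median probe set (75.3 ± 5.23 to 97.8 ± 0.559, SD, n = 3 each). With a background level subtracted its log2 change was 1.06, which is above 1.5-fold. The ceramide synthase CERS5, whose groups overlapped, rose by 0.36 (limma adjusted p = 0.0386), a call that was lost without monolayer 1 or 3 or oncosphere 1 or 3 (adjusted p of at most 0.127 in these fits, and 0.0134 to 0.184 over all alternatives). KDSR, which reduces an early intermediate, fell by 0.31 on the log2 scale by its brightest probe set and by 0.38 by another. Its remaining probe sets overlapped between groups and were not called (log2 changes of -0.14 and -0.01). PLEKHA8, which carries glucosylceramide, rose by 0.35 by its brightest probe set and by 0.29 by another, but 2 more of its 6 probe sets fell, by 0.26 and 0.29 on the log2 scale, and the mean of all was not called (adjusted p = 0.977). The number of higher genes was 2 without the oncosphere 3 array, and the number of lower genes was 1 in all fits that left out 1 array except the one without monolayer 3.

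Enzymes that make and activate sialic acid, the donor sugar of every sialyltransferase, were lower or not called. Of 7 genes, 0 rose, 3 fell and 4 were not called, with a median log2 change of -0.05. NANP, the phosphatase that releases free sialic acid, read 1054, 1105 and 1068 in monolayers and 646, 717 and 721 in oncospheres (log2 change -0.63, SE 0.06, limma adjusted p = 1.92e-04). NANS, the synthase before it, read 2373, 2468 and 2575 in monolayers and 1752, 1998 and 1784 in oncospheres (log2 change -0.42, SE 0.07, adjusted p = 0.00235). Its other, _x_at probe set was not called (log2 change 0.01), and neither was the mean of both (adjusted p = 0.063, against 0.00109 to 0.063 over all alternatives). CMAS, which joins sialic acid to CMP, fell by 0.21 on the log2 scale by its brightest probe set (adjusted p = 0.0383), whereas its second, an _x_at probe set, rose by 0.42 (adjusted p = 0.0273). The lower call on CMAS was lost in 5 of the 6 fits that left out 1 array, all except the one without oncosphere 2, with adjusted p of at most 0.127 there and of 0.0266 to 0.349 over all alternatives. GNE, the first enzyme of the route, and the transporter SLC35A1, which carries CMP-sialic acid into the Golgi, were not called (log2 changes of 0.11 and 0.02). Without the monolayer 3 array, 1 gene of this list was called higher.

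In contrast, most measured genes of lysosomal breakdown rose. Among sialidases and glycosphingolipid hydrolases with their helpers, 8 of 14 rose, 6 of them by at least 1.5-fold, 1 fell and 5 missed the threshold, and the median log2 change was 0.41. PSAP, the precursor of the saposins that present sphingolipids to hydrolases, read 4122, 4016 and 4154 in monolayers and 9009, 8417 and 10671 in oncospheres (log2 change 1.19, SE 0.09, limma adjusted p = 4.35e-05). CTSA, which protects the lysosomal sialidase, rose 2.23-fold (log2 change 1.16, SE 0.10). The acid ceramidase ASAH1 rose 1.99-fold by its brightest, _x_at probe set (log2 change 1.00, SE 0.10). Other probe sets of ASAH1 rose 1.67-, 1.71- and 1.69-fold, and its dimmest was not called (1.08-fold). NEU3, the sialidase of the plasma membrane that acts on gangliosides, fell from 284, 266 and 283 to 198, 196 and 204 (log2 change -0.48, SE 0.06, adjusted p = 4.28e-04). The other 3 of its 4 probe sets were not called, and the mean of all had a log2 change of -0.15. NEU1, HEXA and SCARB2 are named beside these after their values were seen, with log2 changes of 0.93 for the lysosomal sialidase NEU1, 0.99 for HEXA, a subunit of the enzyme that degrades GM2, and 0.99 for SCARB2, the carrier of glucocerebrosidase. Without the oncosphere 2 array, 2 genes of this list were called lower.

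The sialyltransferases outside the set were counted in the same way. Of 10 measured, 1 rose, 2 fell and 7 were not called, where 34.9% of all genes were called, and the median log2 change was 0.01. Among the uncalled genes, ST6GAL2, ST6GALNAC1, ST8SIA2 and ST8SIA3 had group means below the median probe set, so the lack of a call does not show an unchanged level. The gene that rose was ST8SIA4, which builds polysialic acid chains on carrier glycoproteins. Its brightest probe set read 299, 277 and 276 in monolayers and 1015, 823 and 1003 in oncospheres, a 3.32-fold increase (log2 change 1.73, SE 0.09, limma adjusted p = 8.08e-06). Of its 4 other probe sets, 3 were called higher by smaller margins, 2.73-, 2.42- and 1.78-fold, and 1 was not called (1.04-fold), and the mean of all had a log2 change of 1.07. ST6GALNAC3 (log2 change -0.39) and ST8SIA5 (log2 change -0.29) fell, with means of 83.8 and 104 in oncospheres, below the median probe set. With a background level subtracted the log2 change of ST6GALNAC3 was -1.19, and with the mean of its probe sets that of ST8SIA5 was -0.03. The call on ST8SIA5 (adjusted p = 0.0348) was lost without monolayer 1 or 3 or oncosphere 1 or 3, which left 1 lower gene in the list, and its adjusted p was at most 0.116 in these fits and 0.00969 to 0.705 over all alternatives.

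Among genes that build the acceptor chains of glycoproteins and the sialyl Lewis antigens, 7 of 22 rose, 3 fell and 12 were not called, with a median log2 change of 0.01. GALNT1, which starts O-glycans, rose 1.58-fold by its brightest probe set (1353 ± 44.1 to 2143 ± 35.2, SD, n = 3 each, limma adjusted p = 7.17e-05). The galactosyltransferase B4GALT1 rose 1.52-fold and the branching enzyme MGAT4B 1.44-fold, the mean of the B4GALT1 probe sets not being called (log2 change 0.18). C1GALT1, which makes the O-glycan core that ST3GAL1 caps, fell by 0.33 on the log2 scale (SE 0.06) by its brightest probe set and by 0.31 by another. Its dimmest probe set was not called (log2 change -0.08). The fucosyltransferases FUT3, FUT4, FUT5, FUT6 and FUT7, which complete the sialyl Lewis antigens and are named after their values were seen, were not called, with log2 changes between -0.10 and 0.02. FUT3 and FUT7 had group means below the median probe set, FUT5 lay just above it, and FUT6 was read by an _x_at probe set. For such dim genes the lack of a call does not show an unchanged level. The number of lower genes in the list was 1 without monolayer 2 or 3 or oncosphere 1 or 3.

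**Figure D4:**
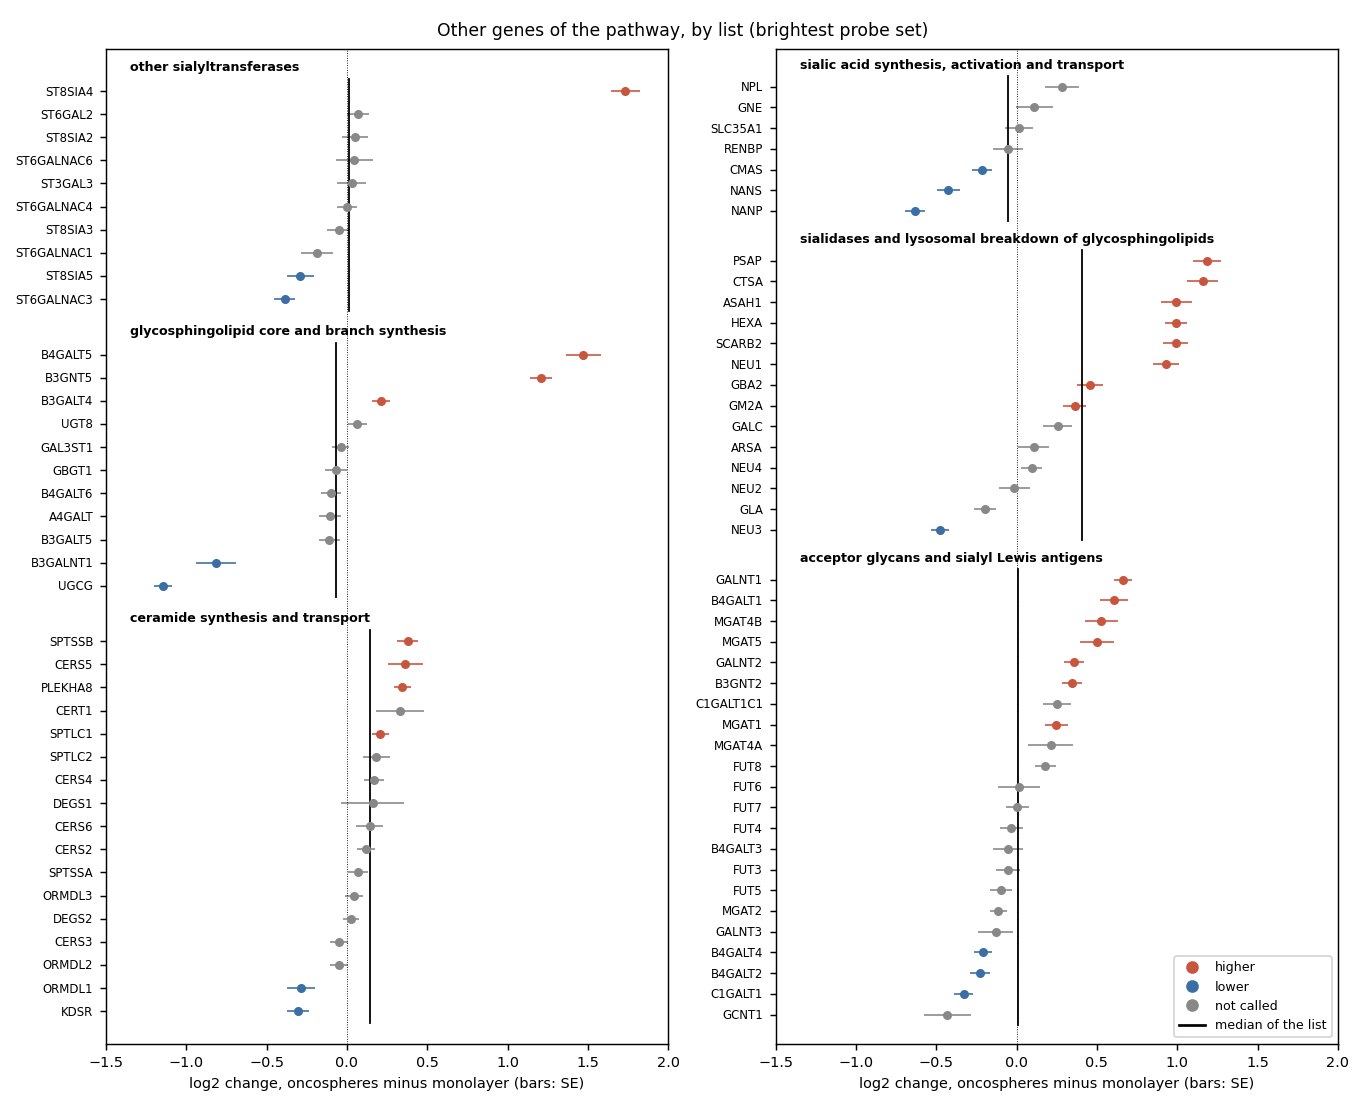
The log2 change (oncospheres minus monolayer, bars show the SE from limma) of the 81 measured pathway genes outside the set, by list, with higher calls in red, lower calls in blue, no call in gray, and a black line at the median of each list. The breakdown list has its median at 0.41, against 0.01 for the other sialyltransferases, where ST8SIA4 at 1.73 stands alone.

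Over the whole series, arrays of 1 group correlated across probe sets with Pearson's r of 0.993 to 0.996 and arrays of different groups with 0.966 to 0.973, and the oncosphere 2 array stood apart on the second principal component (6.89% of the variance). Of 5 markers that are high in MDA-MB-231, all were bright, and CAV1, KRT18 and KRT8 were called lower in oncospheres while VIM and CD44 were not called (summed intensity 45099 to 45906 in monolayers and 40342 to 42764 in oncospheres). Of 7 luminal markers listed as low in the line, ESR1, PGR and CDH1 lay near or below the median, but ERBB2, GATA3, EPCAM and KRT19 were well above it, EPCAM being called lower and KRT19 higher (means of 991 and 1695), so this list was not low throughout (sum 2633 to 2671 and 3124 to 3386).

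Some markers of other cell types moved with the comparison. Blood markers had a summed intensity of 635 to 649 in monolayers and 651 to 759 in oncospheres. Of these, 2 of 6 were called higher, CD14 (means of 134 and 193) and LYZ (70.5 and 96.3). PTPRC, CD3E, MS4A1 and HBB were not called, and PTPRC was lower in oncospheres without overlap (79.5 and 71.4). Endothelial markers summed to 466 to 491 and 679 to 921, with PECAM1 called higher (188 and 568), KDR lower (123 and 87.0) and the other 2 of 4, CDH5 and VWF, not called and below the median on every array. Fibroblast markers summed to 1959 to 2196 and 4915 to 5359.9. Of these, 4 of 6 were called higher, COL1A1 (1524 and 4068), COL1A2 (118 and 229.8), COL3A1 (103 and 444) and LUM (70.8 and 196), and DCN and PDGFRB, near the median, were not called. The part of these markers in the results was not tested.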

How the data were processed

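The authors normalized raw data of 6 Affymetrix Human Genome U133 Plus 2.0 arrays by robust multi-array averaging, and the submitters' processing notes name the affy package, whose version the sources used here do not give. The deposited values were linear intensities per probe set (lowest value 48.02), and whether they had been rescaled or floored is not stated. Labelled cRNA came from 100 ng of total RNA, and the number of arrays limits the precision.

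After 62 control probe sets were left out, log2 of the intensity of 54613 probe sets was fitted with limma 3.58.1 (R 4.3.3) for oncospheres against monolayer, the empirical Bayes test that the methods of the study name, with Benjamini-Hochberg adjustment over all of them and a call at an adjusted p below 0.05. The annotation gave 41091 probe sets 1 symbol, 1801 several and 11721 none. Gene identifiers of 41037 were found in the RefSeq table of GRCh38.p14. A gene was represented by its brightest probe set, which gave 19775 genes. The procedure was also run on simulated arrays, whose outcome is not given here and adds no support to the calls.

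The members and gene lists were chosen with earlier results of these data known. Named genes were the 10 members, up to 4 called genes of each list with the largest change (the last of them giving way to the top gene of the rarer direction), and the 5 genes most correlated with ST3GAL5. B4GALT6, GNE and SLC35A1 were added after their values were seen. Promoter sequences were taken from RefSeq. Alternatives were other normalizations, background subtraction (values under 16 set to 16), filters, an intensity trend, array weights, a replicate block, other probe set rules, stricter calls and each array left out in turn.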

Additional observations from a re-analysis of the deposited data

How the results depend on the processing

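Of 178 alternative values for the 10 genes, none changed sign, 10 lost a call and 6 gained one, all gains being those of ST3GAL6. The stricter calls, the filter for dim probe sets, the intensity trend and the replicate block do not alter the log2 change. No sign could change there. Apart from the stricter calls, a call was lost only for B4GALNT1 (background subtracted) and for ST3GAL2 and ST6GAL1 (mean of all probe sets). ST3GAL5 has only an _s_at probe set and no value without that kind, and the probe sets of ST8SIA1 were among those left out as dim. Called probe sets of the set numbered 11 higher and 4 lower, 7 higher without _x_at and _s_at probe sets, where fewer were tested, and 3 higher and 2 lower with a change of at least 1.5-fold. With that minimum, 2 of the genes were higher and 1 lower, and of the pathway genes 11 were higher and 3 lower. At an adjusted p below 0.01, 8 pathway genes were lower. Leaving out 1 array gave 8 to 10 probe sets higher and 4 to 6 lower, 6 genes higher each time and 3 to 4 lower, and 20 to 24 pathway genes higher and 8 to 14 lower. CMAS changed sign with the mean of its probe sets (log2 change 0.10), which were called in opposite directions. Of 22 named pathway genes, 10 kept their call under all alternatives run. C1GALT1, KDSR, MGAT4B, NEU3, SPTSSB and ST6GALNAC3 lost theirs only with the 1.5-fold minimum, which their reported change does not reach.

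Replicate numbers were shared between groups, but the labels give no common culture, and same-numbered arrays deviated together with correlations of only 0.0685 to 0.089, so the block was not used. Every array correlated best with its own number, a hint from the data. With the replicate block, 9 probe sets were higher and 5 lower, 6 genes higher and 4 lower, and 23 pathway genes higher and 13 lower. For ST8SIA1, ST6GALNAC5, B4GALNT1, ST6GALNAC3, ST8SIA5 and SPTSSB, the size of a change moved by over 1.5 times with a background level subtracted. B4GALNT1 and ST8SIA5 also lost their calls there.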
